A study of Glycyrrhiza uralensis with 48 samples.

Results

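The comparison described here is that of silicate-fed with unfed licorice (Glycyrrhiza uralensis) seedlings, both under salt and drought together, in their aerial parts. It was chosen by sample label and covers all genes of the expression table, with 6 of the series' 48 libraries and all 38463 table entries. Seedlings of every group were 45 days old and had been grown from seed in pots of sterilised desert sand that held no nutrients. The 3 aerial salt-drought libraries with silicate (the silicate-fed libraries below) came from seedlings given 75 mM NaCl, a moisture of 35 to 45% of saturation, and 2 mM silicon as potassium silicate. The 3 aerial salt-drought libraries without silicate (the unfed libraries) had the same NaCl and moisture and no potassium silicate. Other groups are used only as a background, again with and without 2 mM silicon: salt alone at 75 mM NaCl, drought alone at 35 to 45% moisture, an unstressed control given distilled water, and underground parts of the same treatments. Each of the 16 groups had 3 libraries. Potassium silicate also brings potassium, and the labels name no group given potassium without silicon, so the 2 cannot be told apart.

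Silicon is taken up by roots as silicic acid, moves to the shoot in the transpiration stream, and is deposited there as amorphous silica. It is not essential for most plants, and its supply is studied mainly for its effects on plants under drought, salinity and disease. Licorice is a legume of dry and saline land whose roots and rhizomes hold the triterpenoid saponin glycyrrhizin. Salinity and drought both lower the water available to a plant, and salinity adds sodium and chloride.

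Expression was given as FPKM (fragments scaled to transcript length and library size), and changes below are differences of log2(FPKM + 1), silicate-fed minus unfed. A gene was tested if it had at least 1 FPKM in at least 3 of the 24 aerial libraries, which kept 23389 genes. A gene is said to have risen or fallen where limma's Benjamini-Hochberg adjusted p was under 0.05 over all tested genes. The files pair no identifier with a gene name or function, so genes are described in groups and by position, and few are named. The 6 libraries had 27746 to 29883 genes above 0 and summed to 641783 to 669790 FPKM. Correlations of log2(FPKM + 1) were 0.949 to 0.968 among the silicate-fed libraries, 0.968 to 0.973 among the unfed ones, and 0.904 to 0.964 between the groups.

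One property of these libraries touches most results and is given first. A list of 10 underground markers held genes with at least 100 FPKM in each unstressed underground library and at most 1% of that in each unstressed aerial library. The rule was chosen after the data were seen, because a stricter one left 1 gene. Their median level, as a percentage of the underground level under the same treatment, was 0.863, 12.6 and 1.41% in silicate-fed libraries 1, 2 and 3, against 0.00136, 0.113 and 0.00915% in unfed libraries 1, 2 and 3. The groups did not overlap, and silicate-fed library 2 stood highest of all 24 aerial libraries. The summed FPKM of the list was 799.9, 9001 and 1347 in the silicate-fed libraries, against 2.40, 12.7 and 7.87 in the unfed ones. Of the silicate-fed sums, 570.4, 4467 and 725.0 came from 3 markers of Scaffold01944, Glyur001944s00035546, Glyur001944s00035547 and Glyur001944s00035551. Glyur001944s00035555 is a further marker of that scaffold and is not in these sums. The markers of that scaffold rose by 6.33 to 8.75 (limma adjusted p at most 0.00460), and Glyur000424s00026890 rose by 3.40 (limma adjusted p 0.0273). The other markers did not pass the test, with limma adjusted p of 0.0530 to 0.252. All 10 markers were above 0 in each silicate-fed library, while 4, 1 and 3 of them were at 0 in unfed libraries 1, 2 and 3. Among the other aerial libraries, library 3 of drought without silicate stood at 9.20%, and the remaining libraries reached at most 0.654%. Counts below are therefore also given without silicate-fed library 2 and this drought library. In such bulk samples, more cells of a kind and more RNA per cell cannot be told apart.

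**Figure D1:**
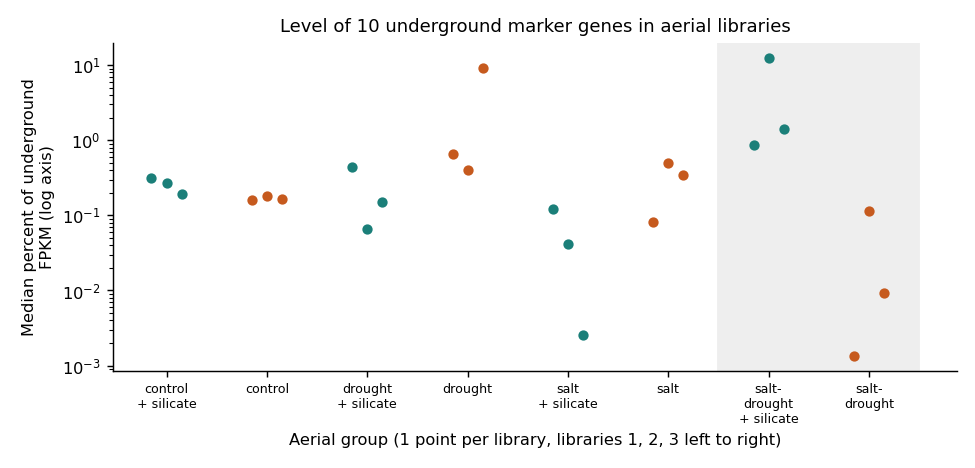
Median level of the 10 underground marker genes in each of the 24 aerial libraries, as a percentage of their FPKM in underground parts under the same treatment, on a log axis. Silicate-fed libraries are green and unfed ones orange, and the shaded pair is the comparison described here. The silicate-fed salt-drought libraries stand at 0.863, 12.6 and 1.41%, and the unfed ones at or below 0.113%.

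With silicate, 1359 genes rose and 803 fell in salt-drought aerial parts, which is 5.81% and 3.43% of the tested genes and 9.24% together. Another 21227 did not pass the test. These calls rest on the spread estimated over all 24 aerial libraries: fitted on the 6 libraries alone, 12 genes rose and 2 fell. The median change of all tested genes was 0.03. The 3 silicate-fed values lay above all 3 unfed values for 4144 genes (17.7%) and below them for 3167 genes (13.5%). Without silicate-fed library 2 and the drought library, 309 genes rose and 239 fell (1.32% and 1.02% of those tested, 2.34% together). Of these, 304 and 229 had also risen or fallen in the full comparison, and 0 had changed the other way. The numbers depended on other libraries too. Leaving out unfed library 3 left 214 rises and 132 falls (0.915% and 0.564%, 1.48% together), and leaving out silicate-fed library 2 alone left 250 and 231. Without silicate-fed library 3 there were 812 and 526. Without silicate-fed library 1 there were 1629 and 517, without unfed library 1 there were 876 and 733, and without unfed library 2 there were 1020 and 477.

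The split between rises and falls also depended on the scaling. The median log2(FPKM + 1) of a library was not the same throughout, and centring each library on its own median lowered the median change of all tested genes by 0.11, so that it stood at -0.08. After that centring, 1087 genes rose and 1801 fell, and rises made up 37.6% of the calls in place of 62.9%. The differences between gene groups given below are therefore read against the median of their own background, which the centring moves with them. Centring shifts the change of every gene by the same amount, so such a difference is the same before and after it by construction.

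Genes were grouped by their level in the unstressed libraries, none of which enters the comparison. Genes at least 1 log2 unit higher underground than in aerial parts at both silicate levels were called higher underground, those at least 1 unit lower underground were called higher aerial, and the others similar. Of the 3043 tested genes that are higher underground, 614 rose with silicate and 2 fell (20.2% and 0.0657%). Their median change was 0.55, and 435 of the rises were at least 1 log2 unit. Of the 20346 other genes, 745 rose and 801 fell (3.66% and 3.94%), with a median change of -0.02. Among these, the 3511 genes higher in aerial parts had 45 rises and 216 falls with a median of -0.15. The 16835 similar genes had 700 rises and 585 falls with a median of 0.01. Relative to the median of the genes not higher underground, the higher underground group stood at 0.56 and the higher aerial group at -0.13, which centring cannot change.

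These counts shrank without the libraries in question. Genes higher underground had 112 rises and 2 falls without silicate-fed library 2 and the drought library, and 81 rises and 0 falls without unfed library 3. The genes not higher underground had 197 rises and 237 falls without the first pair, and 133 and 132 without unfed library 3. Centring left 601 rises and 9 falls among the genes higher underground, and 486 rises and 1792 falls among the others, and rescaling each library to a common median ratio gave 909 and 899 among the others. Whether rises or falls were more frequent outside the underground genes thus depended on the scaling. Centring left 31 rises and 380 falls among the genes higher in aerial parts, and 455 and 1412 among the similar ones.

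The 614 rises among genes higher underground were mostly of genes with low levels in unfed aerial parts. The median gene had 7.02 FPKM in silicate-fed aerial parts and 1.22 FPKM in unfed ones, and the changes ranged from 0.35 to 8.75 with a median of 1.32. In all, 146 tested genes averaged at least 5 FPKM in the silicate-fed libraries and under 1 FPKM in the unfed ones, and 126 of them were higher underground. The reverse held for 4 genes. The 614 rises moved with the underground markers, whose medians were 0.863 to 12.6% in the silicate-fed libraries and at most 0.113% in the unfed ones. The markers are higher underground by their rule, and those that rose are among the 614 genes, so the sets are not independent. The 614 were also chosen on this contrast. The part of the markers in the result was not tested.

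Across a broader set the 2 groups were closer. The 2705 genes higher underground with at least 5 FPKM in underground silicate-fed salt-drought parts were taken as a percentage of that level. The median was 16.6, 34.5 and 23.8% in silicate-fed libraries 1, 2 and 3, against 11.7, 14.9 and 11.7% in unfed libraries 1, 2 and 3. The groups did not overlap, and the aerial control libraries lay within the silicate-fed range, at 18.1, 18.1 and 19.9%. Summed over all 3043 genes, this group took 5.28, 10.8 and 6.24% of the FPKM of the silicate-fed libraries, against 3.93, 4.61 and 4.25% in the unfed libraries. The means were 7.45 ± 2.98% in silicate-fed and 4.27 ± 0.338% in unfed libraries (SD, n = 3 each), and the exact permutation test gave a two-sided p of 0.1, the smallest that 3 against 3 allows. The aerial control stood at 4.999 ± 0.0878% (SD, n = 3).

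The levels of the changed genes in each library, set against the mean of the aerial control, show which side of the comparison lay away from unstressed plants. These genes were chosen on this contrast, so the levels are a description. Genes not higher underground that rose had library medians of -0.01, 0.11 and -0.03 in the silicate-fed libraries, against -0.49, -0.48 and -0.71 in the unfed ones. Those that fell had medians of -0.11, -0.10 and -0.05 in the silicate-fed libraries, against 0.36, 0.43 and 0.58 in the unfed ones. In both sets the silicate-fed libraries lay near the control and the unfed libraries away from it. Unfed library 3 lay farthest from the control in both. The genes higher underground that rose behaved otherwise: their medians were 0.12, 1.16 and 0.55 in the silicate-fed libraries, against -0.70, -0.51 and -0.75 in the unfed ones, so silicate-fed libraries 2 and 3 lay well above the control.

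**Figure D2:**
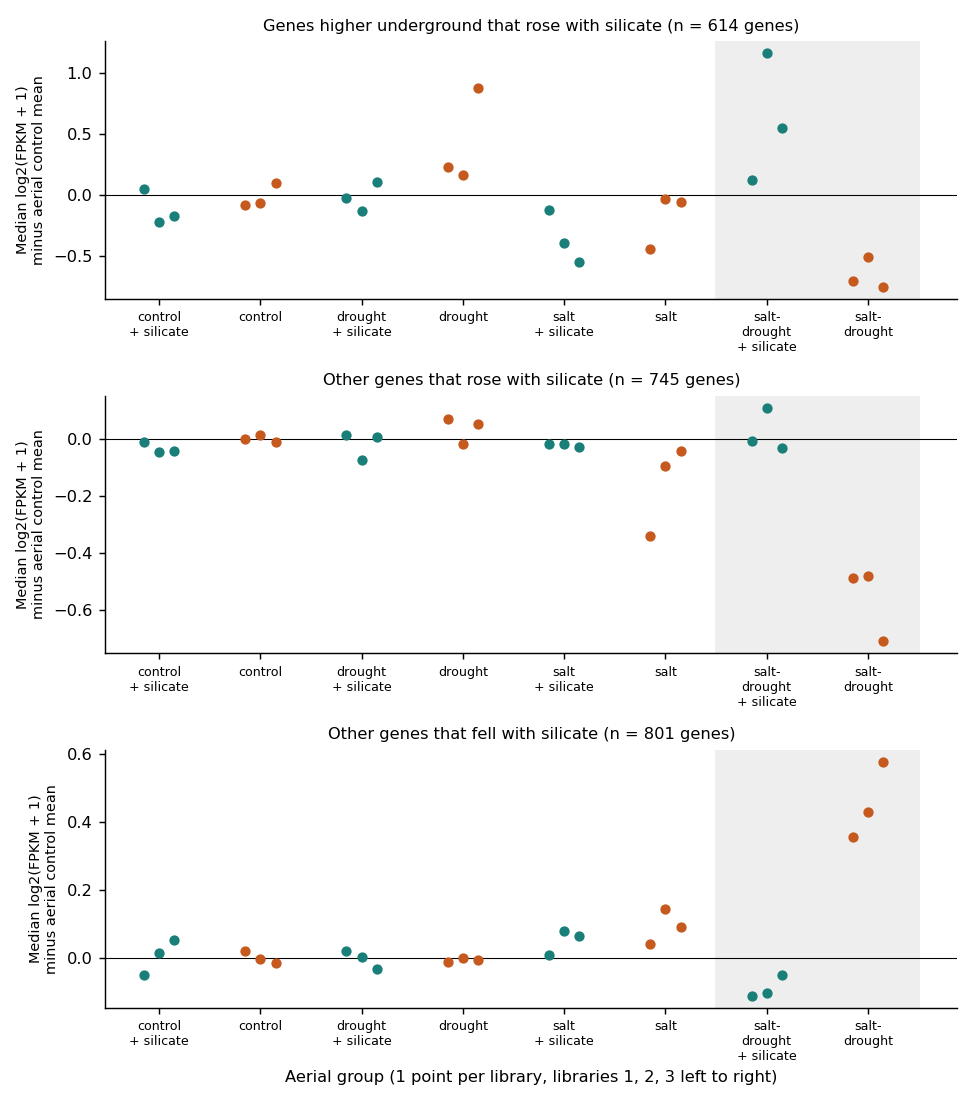
Median log2(FPKM + 1) minus the aerial control mean, per library, for 3 sets of genes that changed with silicate under salt-drought. Silicate-fed libraries are green and unfed ones orange, and the shaded pair is the comparison that chose the genes. In the middle panel the unfed salt-drought libraries stand at -0.49, -0.48 and -0.71 and the silicate-fed ones near 0.

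The same was seen for the genes that changed without silicate-fed library 2 and the drought library. The 197 rises not higher underground had library medians of 0.05, 0.07 and -0.02 in silicate-fed libraries 1, 2 and 3, against -0.65, -0.66 and -0.84 in the unfed ones. The 237 falls had medians of -0.16, -0.06 and -0.13 in the silicate-fed libraries, against 0.39, 0.46 and 0.61 in the unfed ones. For both sets the silicate-fed libraries lay closer to the control than any unfed library did. Tested against the aerial control, in contrasts that share these libraries and the control, 4015 genes (17.2%) changed in silicate-fed salt-drought and 6848 (29.3%) in unfed salt-drought.

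Outside the underground genes the changes were moderate. The 745 rises had a median change of 0.61, and the median gene had 13.4 FPKM in silicate-fed libraries and 8.45 FPKM in unfed ones. The 801 falls had a median of -0.54, with 19.9 FPKM in silicate-fed libraries and 30.4 FPKM in unfed ones. Only 143 of these rises and 49 of these falls were at least 1 log2 unit. The 745 rises together made up 2.71, 2.93 and 2.65% of the FPKM of the silicate-fed libraries, against 1.79, 1.81 and 1.497% of the unfed ones, with 2.64 ± 0.0229% in the aerial control (SD, n = 3). The 801 falls made up 6.31, 5.46 and 6.41% in the silicate-fed libraries, against 8.93, 9.64 and 9.82% in the unfed ones, with 6.85 ± 0.208% in the control (SD, n = 3). Neither set overlapped between the groups, as follows from how the genes were chosen.

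The second grouping was by response to each stress alone, in contrasts that use none of the 6 libraries, although these enter the shared estimate of the spread. It is given over the genes not higher underground, where 3.66% rose and 3.94% fell with silicate and the median change was -0.02. Salt alone raised 700 of all tested genes and lowered 928 (2.99% and 3.97%), both against the aerial control. Of the 643 salt-raised genes not higher underground, 13 rose with silicate under salt-drought and 71 fell, with a median of -0.12. Of the 817 salt-lowered ones, 68 rose and 30 fell, with a median of 0.09. The median stood 0.10 below that of the background for salt-raised genes and 0.11 above it for salt-lowered genes, which centring cannot change. The centred values themselves gave 4 rises and 117 falls among salt-raised genes and 49 and 64 among salt-lowered ones, whose median turned to -0.02, beside 486 and 1792 over the background. With silicate-fed library 2 and the drought library left out, the salt-raised genes had 4 rises and 25 falls and the salt-lowered ones 24 and 13. Without unfed library 3 they had 3 and 16, and 23 and 12.

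Drought alone raised 389 genes and lowered 389 (1.66% each), again against the aerial control. Of the 270 drought-raised genes not higher underground, 12 rose with silicate under salt-drought and 9 fell, close to the background shares, and the median was -0.00. Of the 370 drought-lowered ones, 6 rose and 33 fell, with a median of -0.10. Centred values gave 3 rises and 14 falls for the drought-raised genes and 2 and 58 for the drought-lowered ones, whose median lay 0.08 below the background. When silicate-fed library 2 and the drought library were left out of the silicate fit, the drought-lowered group had 0 rises and 13 falls. Without unfed library 3 it had 0 and 10. The drought groups themselves were formed with the drought library and were not formed again without it.

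The response of underground parts to salt-drought, measured in other libraries altogether, gave a further grouping. Salt-drought raised 4177 of 24478 genes tested in underground parts and lowered 2436 (17.1% and 9.95%). Of the 3536 raised genes that were tested in aerial parts and are not higher underground, 77 rose with silicate in aerial salt-drought and 252 fell, with a median of -0.08. Of the 1531 lowered ones, 124 rose and 23 fell, with a median of 0.09. Relative to the background the medians stood at -0.06 and 0.11, which centring cannot change. Centred values gave 47 rises and 558 falls for the raised genes and 77 and 75 for the lowered ones. With the same 2 libraries left out the raised genes had 15 rises and 80 falls and the lowered genes 46 and 5. Without unfed library 3 the counts were 12 and 43, and 33 and 3.

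**Figure D3:**
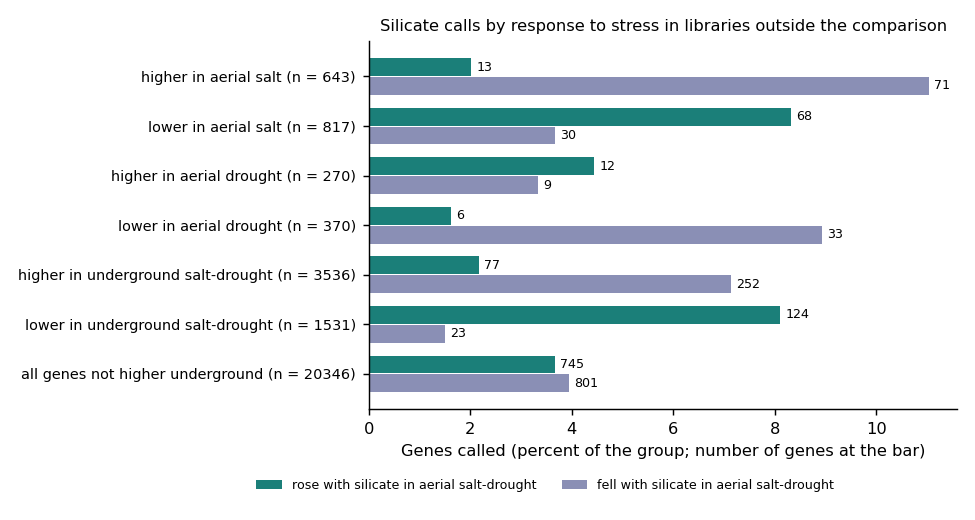
Genes that rose (green) or fell (grey) with silicate in aerial salt-drought, as a percentage of each group of genes not higher underground, with the number of genes at each bar. Groups were formed from contrasts between libraries outside the comparison. Salt-raised genes had 71 falls and 13 rises, and genes lowered in underground salt-drought had 124 rises and 23 falls, beside 745 rises and 801 falls over all 20346 genes.

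The silicate response was then set beside silicate's effect under the other conditions, in contrasts that share with it no library, only the estimate of the spread within aerial parts. Silicate changed 104 genes (0.445%) in unstressed aerial parts. In aerial parts under drought or under salt, limma called 0 genes (0%), while unadjusted p was under 0.05 for 2254 and 1272 genes, beside 6029 for silicate in salt-drought. In underground parts under salt-drought it changed 1 gene of 24478 (0.00409%). The 745 rises not higher underground had a median silicate change of -0.03 in the control, -0.05 in drought and 0.13 in salt. Over all tested genes the medians were -0.03, -0.06 and 0. In salt, 572 of the 745 were positive, beside 49.97% of all tested genes. The 801 falls had medians of 0.01, -0.01 and -0.05 in control, drought and salt, and 300 of the 801 were positive in salt. In underground salt-drought their median was -0.17, beside -0.07 over all genes tested in both parts, and that of the 745 rises was -0.01. The 614 rises of genes higher underground had negative medians in the other aerial conditions. These were -0.12 in control, -0.42 in drought and -0.22 in salt, with 184, 71 and 139 of the 614 positive. The 2427 genes higher underground that did not pass the test had medians of -0.08, -0.25 and -0.11. The drought contrast includes unfed drought library 3, with markers at 9.20%, whose part in it was not tested. Against the aerial control mean, the 614 had library medians of 0.23, 0.16 and 0.88 in drought libraries 1, 2 and 3 without silicate. With silicate the drought libraries had -0.03, -0.13 and 0.11. In underground salt-drought the 614 had a median of 0.21, and 505 were positive. The 2427 that did not pass the test shared this direction, with a median of 0.12 and 1646 positive.

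Whether the silicate response differed between conditions was tested gene by gene. The silicate change in aerial salt-drought differed from that in the aerial control for 484 genes (2.07%), being higher for 280 (1.2%) and lower for 204 (0.872%), and 92 of the 280 are higher underground. It differed from that in aerial drought for 1155 genes (4.94%), higher for 851 (3.64%) and lower for 304 (1.3%), and 529 of the 851 are higher underground. Drought library 3, with underground markers at 9.20%, and silicate-fed library 2 at 12.6% stand on opposite sides of that contrast, and their part in it was not tested. Without this pair of libraries, the difference was called for 14 genes against drought and for 27 against control. Against aerial salt limma called 0 genes (0%) and 3552 had an unadjusted p under 0.05, which does not show that silicate acted alike in both. Against underground salt-drought, 251 of 26335 genes differed (0.953%), 225 higher (0.854%) and 26 lower (0.0987%) in aerial parts, and 28 did without the pair.

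Single libraries decided these counts. Without unfed library 3, 25 genes differed from the control, 33 from drought and 8 from underground parts. Without silicate-fed library 2 the counts were 29, 100 and 13, and without silicate-fed library 3 they were 261, 780 and 144. Without silicate-fed library 1 they were 1045, 1640 and 720, with 446 genes differing from salt. Without unfed library 1 there were 731 against drought and 2 against salt, and without unfed library 2 there were 8 against salt.

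The genes named for these differences had the smallest adjusted p in each direction under a fixed rule. Glyur000842s00023842 (Scaffold00842, 61536 to 67954) had 28.6, 32.5 and 32.7 FPKM in silicate-fed salt-drought, against 22.7, 20.7 and 19.1 FPKM in unfed salt-drought. In the control it had 38.2 ± 1.98 FPKM with silicate and 54.4 ± 4.59 FPKM without (SD, n = 3 each). Silicate thus stood above its unfed group under stress and below it without stress, a difference of 1.06 (SE 0.15, limma adjusted p 0.00831). Glyur000178s00013194 (Scaffold00178, 91332 to 92861) had 165.2, 145.8 and 148.3 FPKM in silicate-fed salt-drought, against 206.4, 219.8 and 297.8 FPKM in unfed salt-drought. Its control levels were 106.0 ± 6.67 FPKM with silicate and 60.5 ± 5.97 FPKM without (SD, n = 3 each). The order was the opposite one, with a difference of -1.44 (SE 0.19, limma adjusted p 0.00579).

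Against drought, Glyur000025s00003309 (Scaffold00025, 171472 to 172684), a gene higher underground, had 29.4, 122.1 and 32.9 FPKM in silicate-fed salt-drought, against 1.39, 3.39 and 0.666 FPKM in unfed salt-drought. Under drought alone it had 6.29 ± 0.904 FPKM with silicate and 40.6 ± 18.5 FPKM without (SD, n = 3 each). The difference was 6.70 (SE 0.85, limma adjusted p 0.00514). In drought libraries 1, 2 and 3 the gene had 5.35, 6.39 and 7.15 FPKM with silicate, where the underground markers stood at 0.445, 0.0664 and 0.151%, and 38.7, 23.1 and 60.04 FPKM without, where they stood at 0.654, 0.398 and 9.20%. Within drought without silicate, and within silicate-fed salt-drought, its levels had the order of the markers. Within drought with silicate and within unfed salt-drought they did not, nor across all the drought libraries together. The part of the markers in the result was not tested. Glyur000849s00021638 (Scaffold00849, 59903 to 62651), higher in aerial parts, had 71.5, 64.6 and 78.8 FPKM in silicate-fed salt-drought, against 114.0, 106.3 and 126.5 FPKM in unfed salt-drought. Under drought it had 77.5 ± 4.38 FPKM with silicate and 62.4 ± 6.49 FPKM without (SD, n = 3 each), a difference of -0.996 (SE 0.14, limma adjusted p 0.00714). With only the groups compared its adjusted p was 0.05001.

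Between plant parts, Glyur000044s00005169 (Scaffold00044, 214765 to 215134) had 8.03, 7.35 and 6.20 FPKM in silicate-fed aerial parts, against 4.89, 2.21 and 2.10 FPKM in unfed ones. Underground it had 2.78 ± 0.517 FPKM with silicate and 4.48 ± 0.813 FPKM without (SD, n = 3 each). The difference was 1.61 (SE 0.26, limma adjusted p 0.00473), and it missed the threshold when only the groups compared were fitted (adjusted p 0.147). Glyur000243s00013122 (Scaffold00243, 43312 to 46283) had 116.9, 98.1 and 112.6 FPKM in silicate-fed aerial parts, against 149.1, 145.1 and 164.8 FPKM in unfed ones. Underground it had 61.7 ± 1.21 FPKM with silicate and 52.4 ± 4.92 FPKM without (SD, n = 3 each), a difference of -0.72 (SE 0.13, limma adjusted p 0.0124). This last difference missed the threshold without silicate-fed library 2 (adjusted p 0.0618), without unfed library 3 (adjusted p 0.0750) and with only the groups compared (adjusted p 0.136).

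Of the genes changed by silicate in aerial salt-drought, 309 met every condition of the rule for naming (137 rises, 172 falls): changed also without the pair of libraries, not higher underground, not overlapping another gene, above 0 throughout and at least 5 FPKM in one group, with no overlap between groups. The largest rise was that of Glyur000247s00015486 (Scaffold00247, 5770 to 7052, minus strand, 8 exons, 2 annotated transcripts). It had 26.3, 59.5 and 43.9 FPKM in silicate-fed libraries 1, 2 and 3, against 4.12, 5.44 and 5.79 FPKM in unfed libraries 1, 2 and 3. The lowest silicate-fed value was above every unfed value, and the change was 2.79 (SE 0.46, limma adjusted p 0.00346). Unstressed aerial parts had 153.8 ± 80.7 FPKM with silicate and 34.5 ± 14.0 FPKM without (SD, n = 3 each). Under salt alone the gene had 12.6 ± 8.42 FPKM with silicate and 9.12 ± 4.78 FPKM without (SD, n = 3 each), and unfed salt differed from the unfed control by -1.83 (limma adjusted p 0.0217). Drought groups stood at 104.6 ± 49.4 FPKM with silicate and 75.1 ± 12.5 FPKM without (SD, n = 3 each). Every salt library and every unfed salt-drought library lay below all 3 silicate-fed salt-drought libraries.

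Glyur000220s00014776 (Scaffold00220, 139114 to 142901, plus strand, 3 exons) had 12.6, 11.1 and 10.1 FPKM in the silicate-fed libraries, against 2.67, 1.42 and 1.04 FPKM in the unfed ones. The groups were far apart, and the change was 2.22 (SE 0.48, limma adjusted p 0.0112). The aerial control had 6.95 ± 3.20 FPKM (SD, n = 3), between the groups. This gene's adjusted p was 0.0684 without unfed library 3 and 0.0581 with only the groups compared.

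The largest fall was that of Glyur000130s00006890 (Scaffold00130, 57817 to 58038, minus strand, 1 exon), a gene higher in aerial parts. It had 3.53, 1.73 and 5.92 FPKM in the silicate-fed libraries, against 18.5, 15.4 and 18.5 FPKM in the unfed ones. The change was -2.06 (SE 0.37, limma adjusted p 0.00435), and with only the groups compared the adjusted p was 0.0693. Unstressed aerial parts had 56.1 ± 19.5 FPKM with silicate and 24.001 ± 6.16 FPKM without (SD, n = 3 each). Against the unfed control, silicate-fed salt-drought differed by -2.47 (limma adjusted p 0.000125) and unfed salt-drought by -0.41 (limma adjusted p 0.423). Here the silicate-fed libraries were the ones away from the control, and no other aerial library was as low as any of them.

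Glyur004955s00045577 (Scaffold04955, 4118 to 4648, minus strand, 1 exon), also higher in aerial parts, had 5.42, 8.32 and 9.57 FPKM in the silicate-fed libraries, against 22.6, 21.7 and 35.5 FPKM in the unfed ones. The change was -1.65 (SE 0.35, limma adjusted p 0.00915). The aerial control had 12.6 ± 6.404 FPKM (SD, n = 3), and unfed salt-drought lay above it by 1.11 (limma adjusted p 0.0222). The unfed values were the highest of all aerial libraries. This gene's adjusted p was 0.0665 without unfed library 3 and 0.0693 with only the groups compared.

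**Figure D4:**
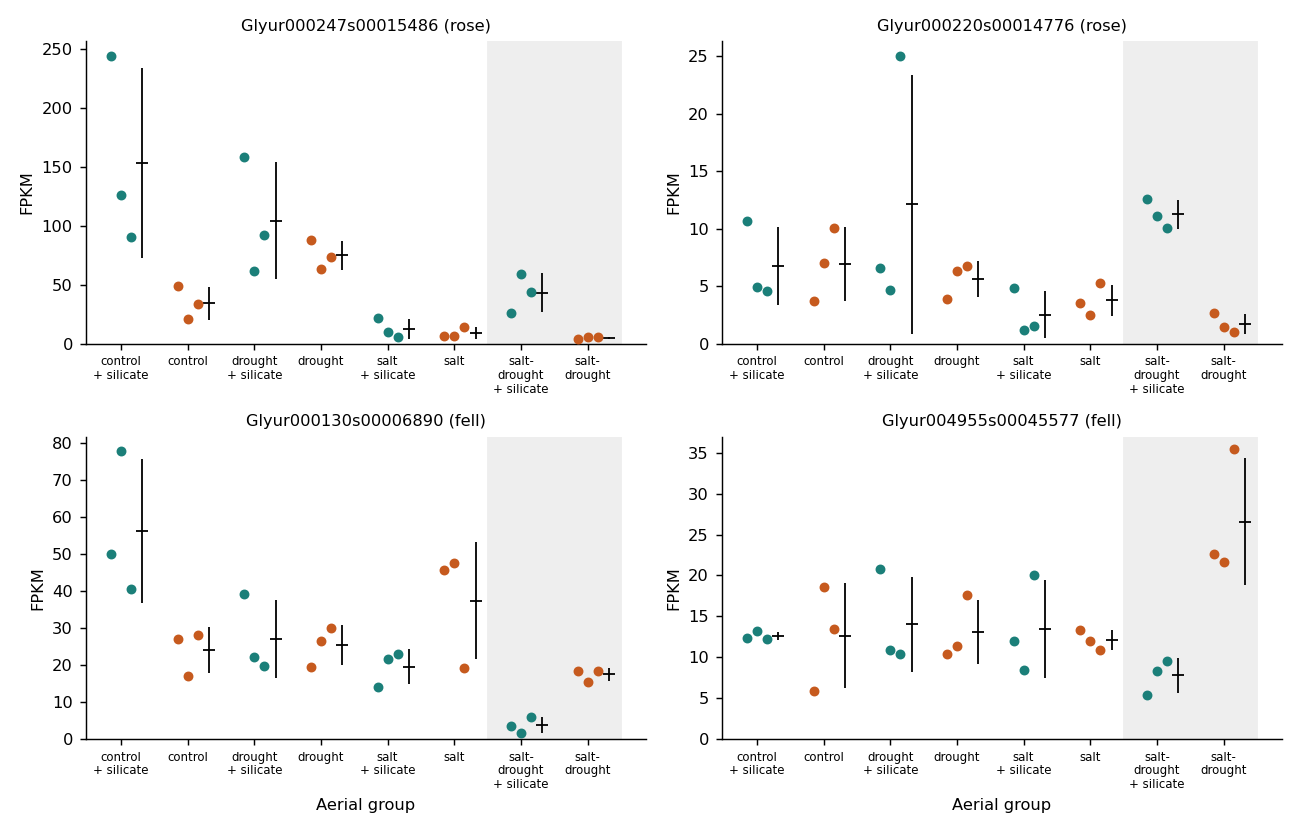
FPKM of the 4 named genes in each aerial library, with the mean and SD of each group as a black bar beside its points (n = 3). Silicate-fed libraries are green and unfed ones orange, and the shaded pair is the comparison described here. In the upper panels the silicate-fed values of the shaded pair lie above the unfed ones, and in the lower panels they are lower than the unfed ones.

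The changed genes were also grouped by level and gene structure, again over genes not higher underground, of which 3.66% rose and 3.94% fell. Among the 985 genes averaging over 100 FPKM in aerial libraries, 13 rose and 87 fell (1.32% and 8.83%), and the median was -0.14. The 5133 genes of 20 to 100 FPKM had 242 rises and 354 falls (4.71% and 6.90%). The 6993 of 5 to 20 FPKM had 345 and 282 (4.93% and 4.03%). The 5305 of 1 to 5 FPKM had 127 and 68 (2.39% and 1.28%), both below the background shares. Relative to the background median, these 4 bins stood at -0.12, -0.05, 0.01 and 0.04 from the most to the least abundant, which centring cannot change. The counts themselves moved with centring, to 6 rises and 150 falls over 100 FPKM, 142 and 780 from 20 to 100 FPKM, 225 and 650 from 5 to 20 FPKM, and 100 and 181 from 1 to 5 FPKM. Without silicate-fed library 2 and the drought library, the most abundant genes had 4 rises and 17 falls.

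Genes of 10 or more exons had 263 rises and 142 falls among 4448 tested (5.91% and 3.19%), while those of 2 to 9 exons had 381 and 549 among 11912 (3.20% and 4.61%). Single-exon genes had 78 and 83 among 2621 (2.98% and 3.17%), nearer to the shares over all these genes. Centred values gave 151 and 401, 265 and 1172, and 51 and 166 for these 3 groups, and their medians stood at 0.04, -0.02 and 0.02 relative to the background. By level, 1.0%, 3.36%, 6.49%, 6.98% and 2.05% of the genes of 10 or more exons rose in the bins under 1, 1 to 5, 5 to 20, 20 to 100 and over 100 FPKM, against 1.58%, 2.97%, 3.10%, 4.55% and 0.467% of the single-exon genes. Many-exon genes thus had the larger share of rises in the upper 4 bins, by little at 1 to 5 FPKM, and the smaller one under 1 FPKM. The bins under 1 and over 100 FPKM held 100 and 146 many-exon genes and 316 and 214 single-exon genes. Their shares therefore rest on very few rises. Without silicate-fed library 2 and the drought library, genes of 10 or more exons had 58 rises and 41 falls. Entries labelled as new genes, which the annotation does not place, had 23 rises and 27 falls among 1365.

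The new-gene entries nevertheless took 2.26, 2.39 and 2.29% of the FPKM of the silicate-fed libraries, against 1.67, 1.503 and 1.65% in the unfed ones (two-sided exact permutation p 0.1, the smallest possible). A single entry, Glycyrrhiza_uralensis_newGene_11151, was singled out after its values were seen. It made up 109.8% of the difference between the group means in summed FPKM of these entries, not in their shares. It had 8207, 9100 and 8730 FPKM in the silicate-fed libraries, against 4511, 3369 and 4269 FPKM in the unfed ones. Its groups did not overlap, but its change of 1.11 did not pass the test (limma adjusted p 0.238).

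Neighbouring genes that changed together were sought along the scaffolds. The next tested gene had also risen for 8.35% of the risen genes, beside 6.01% over all genes. For falls these shares were 4.80% and 3.70%. Where neither gene is higher underground, they were 4.77% and 3.75% for rises, and 5.67% and 4.29% for falls. Adjacent changes were thus only slightly more frequent than over all genes. The longest run of adjacent tested genes with the same call was one of 5 genes on Scaffold00066 (237192 to 247720), all higher underground, which rose by 1.26 to 2.63. All 5 had also risen without silicate-fed library 2 and the drought library. Their summed FPKM was 9.11, 37.9 and 23.6 in the silicate-fed libraries, against 1.38, 1.49 and 0.578 in the unfed ones. The groups did not overlap, and the aerial control, at 30.7, 15.7 and 13.1, lay in or near the silicate-fed range. Aerial salt libraries were low as well, at 3.57, 0.940 and 0.435 with silicate and at 4.71, 5.79 and 7.67 without. In underground salt-drought parts the run summed to 412.4 ± 50.5 FPKM with silicate and 350.3 ± 142.0 FPKM without (SD, n = 3 each). The part of the marker difference in the rise of this run was not tested. This scaffold, which had the most rises of any, held 10 among 40 tested genes, beside 5.81% of all tested genes. Of its 15 genes higher underground 9 rose, beside 20.2% of all genes higher underground.

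Among genes not higher underground, the longest run was one of 4 genes on Scaffold00217 (130393 to 181997), which fell by 0.39 to 0.56 on the log2 scale. Their summed FPKM was 259.6, 214.9 and 250.4 in the silicate-fed libraries, against 302.7, 324.4 and 365.6 in the unfed ones. The silicate-fed libraries lay around the aerial control, at 252.5 ± 6.25 (SD, n = 3), and the unfed ones above it. In aerial salt the same genes summed to 374.0, 319.7 and 346.5 with silicate and to 306.3, 316.0 and 308.6 without. None of these 4 genes passed the test without silicate-fed library 2 and the drought library. A run of 4 on Scaffold01280 (66581 to 75976) and one of 3 on Scaffold01944, which holds underground markers, rose by 2.06 to 5.29 and 6.33 to 8.70. All genes of both are higher underground. Without silicate-fed library 2 and the drought library, 2 of the 4 on Scaffold01280 and all 3 on Scaffold01944 still rose. The runs were found on this contrast, so their sums carry no test.

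**Figure D5:**
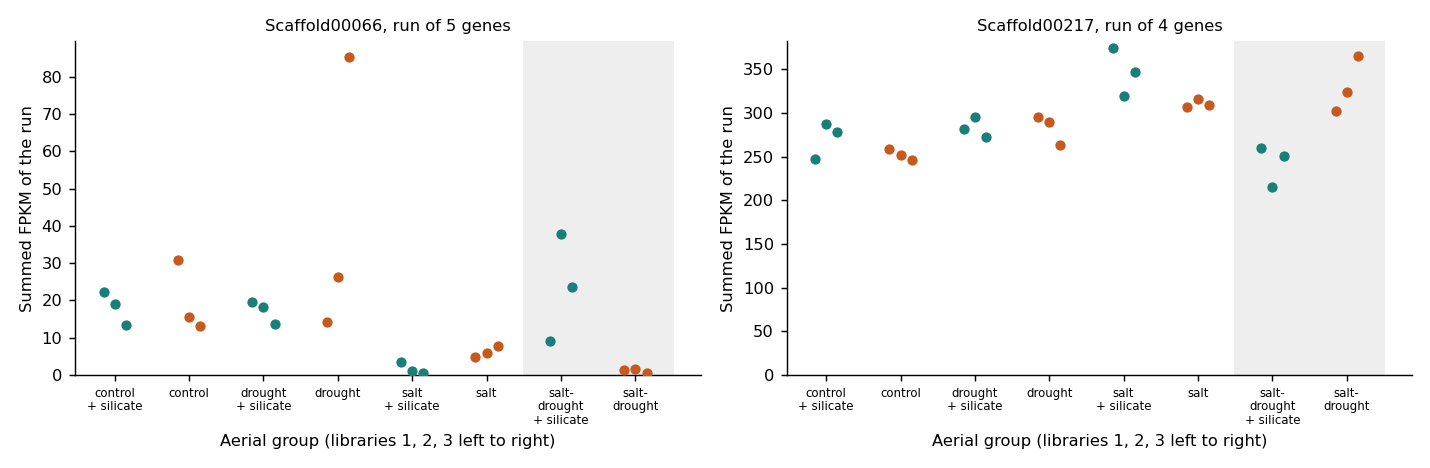
Summed FPKM of the run of 5 genes on Scaffold00066 (left) and the run of 4 genes on Scaffold00217 (right) in each aerial library. Silicate-fed libraries are green and unfed ones orange, and the shaded pair is the comparison that found the runs. On the left the silicate-fed salt-drought libraries stand at 9.11, 37.9 and 23.6 and the unfed ones at or below 1.49.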

How the data were processed

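The authors deposited 1 table of FPKM values, a column per library. Per the submitters' processing notes the tools were TopHat2 and Cufflinks. For both, versions, settings and strand handling are not given in the sources used here. Protocols in the labels describe both nanopore full-length cDNA and Illumina libraries and do not say which gave these values. FPKM scales for gene length and library size and keeps no counts. Low values gave whole fragments, within 0.1, for 47.1 to 64.1% of genes in the 6 libraries, so counts were not recovered, depth is unknown, and no count test or interval was used. Positions are 1-based coordinates of the deposited annotation, for which no source used here names an assembly. In it, 9485 genes overlap another.

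Log2(FPKM + 1) values (pseudocount 1) were tested with limma 3.58.1 in R 4.3.3, with trend and robust options, on all 24 aerial libraries as 8 group means that share 1 estimate of the spread. The contrast between plant parts used all 48 libraries. In simulated data of 23389 genes, limma recovered 79% of 100 genes with a change of 1 log2 unit, and 98% of 100 with a change of 2. These rates describe the simulated data only. In the real data, leaving out unfed library 3 took the calls from 2162 to 346. The rates are therefore not read as recovery in the real comparison, nor as recovery for genes of every level. Nothing says that replicates came from separate pots, and p-values then measure only the spread between the libraries, which may be technical. Deviations of same-numbered libraries of the 2 groups had correlations of -0.01, 0.07 and 0.04, so replicate numbers were not taken as pairs. Members, gene groups and tests were chosen with earlier results of these data known. Named genes were those with the largest rises and falls meeting the conditions in the text, at most 2 a direction, and for each difference between conditions the smallest adjusted p a direction. The marker rule first set, under 1 FPKM in unstressed aerial libraries, left 1 gene and was replaced. Gene groups are described by counts and medians, with no test. Alternatives were another pseudocount, filters, scalings, weights, variance options, a replicate block, fits of the groups compared alone, and fits without single libraries.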

Additional observations from a re-analysis of the deposited data

Results flagged for a closer look

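The silicate response differed between conditions by a test of the difference itself, a limma contrast with adjusted p under 0.05. That of aerial salt-drought differed from that of the aerial control for 484 genes, from that of aerial drought for 1155 genes, and from that of underground salt-drought for 251 genes. The genes with the smallest adjusted p were Glyur000842s00023842 (0.00831) and Glyur000178s00013194 (0.00579) against the control, Glyur000025s00003309 (0.00514) and Glyur000849s00021638 (0.00714) against drought, and Glyur000044s00005169 (0.00473) and Glyur000243s00013122 (0.0124) against underground parts. Groups of 3 libraries were too small for a search for single libraries that stand apart.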

How the results depend on the processing

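Over 16 alternatives none of the 10 named genes reversed. For them 150 values stayed past the threshold and 10 missed it. Part of this was set by the choice of genes. Those of the main comparison had to pass also without the pair of libraries, and the others had the smallest adjusted p. Changing only the filter, the variance options, the replicate block or the groups fitted left the size of each change as it was. No sign could reverse in those fits. Of the counts, 81 stayed within 1.5 times and 79 moved further. The cause was not tested. For silicate in aerial salt-drought, fitting only the groups compared left 14 genes (12 higher, 2 lower), and omitting silicate-fed library 2 and drought library 3 left 548 (309 and 239). Array weights gave 1228 lower and median centring, chosen after seeing the data, 1801. Leaving out 1 library gave 346 to 2146 genes, 214 to 1629 higher and 132 to 733 lower. The numbers did not pair the libraries; a replicate block gave 1958 genes, and 305 for the difference from the control.

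The difference from the control was called for 305 genes without a filter, 24 with only the groups compared, 775 rescaled, 1139 with array weights, 27 without the pair of libraries, 971 centred, and 25 to 1045 without 1 library. For drought the counts were 23 (groups compared), 14 (without the pair), 1912 (centred) and 33 to 1640 (without 1 library). For salt they were 118 (pseudocount 0.1), 1 (no filter), 4 (groups compared), 33 (rescaled), 908 (array weights), 5 (without the pair), 138 (centred) and 0 to 446. For underground parts they were 584 (pseudocount 0.1), 7 (groups compared), 1549 (array weights), 28 (without the pair), 581 (centred) and 8 to 720. With only the groups compared, Glyur000220s00014776 had an adjusted p of 0.0581 by limma, and Glyur000130s00006890 and Glyur004955s00045577 0.0693 each. For the differences between conditions, Glyur000044s00005169 had 0.147, Glyur000243s00013122 0.136 and Glyur000849s00021638 0.05001. Depth is unknown, so what it limits could not be given.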
